A study of Bos taurus with 12 samples.

Results

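The genes described here encode the subunits of the proteasome together with the factors that assemble, cap or inhibit it, as measured on microarrays of bovine conceptuses and of cultured fibroblasts. They were taken as every probe set whose single gene symbol starts with PSM, one of the letters A to G and a number. The inducible catalytic subunits PSMB8, PSMB9 and PSMB10 were not members. Of 24016 probe sets, 43 matched, and they stand for 37 of 9155 named genes. For the 6 genes with more than 1 probe set, the one with the highest mean over the 12 arrays was used. There were 13 core genes, 6 of them PSMA and 7 PSMB. The regulatory particle also had 13 genes, 9 of its base and 4 of its lid. A further 6 genes were assembly factors and 4 were activators or inhibitors. PSME3IP1 encodes a protein that binds a proteasome activator and is no subunit, and it was kept apart as the 1 remaining match. All 37 genes passed the filter on low signals described below, in the conceptus fit and in the fit with fibroblasts.

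The arrays were Affymetrix bovine genome arrays in 4 groups of 3. SCNT conceptuses were elongated embryos recovered on day 16 of pregnancies begun with embryos cloned by somatic cell nuclear transfer. IVP conceptuses, recovered on the same day, had been fertilised and cultured in vitro before transfer, and AI conceptuses had been transferred as in vivo produced embryos. FB arrays held RNA of the fibroblasts that served as nuclear donors. All 3 conceptus groups thus shared transfer to a recipient and recovery on day 16, and RNA came from 10 mg of each elongated embryo sample. Cattle breed, sex and whether a sample was 1 conceptus or a pool are not given in the labels used here, nor is the number of fibroblast lines. Nothing in them says that replicates came from separate animals or cultures, so p-values measure the spread between these samples, which may be technical.

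The proteasome is the protease that degrades proteins tagged with ubiquitin in the cytosol and nucleus. Its core particle is a barrel in which outer rings of alpha subunits gate the entry and inner rings of beta subunits carry the active sites. The regulatory particle caps the barrel: its lid removes ubiquitin, and the ATPases of its base unfold the substrate and feed it into the core. Dedicated chaperones build both particles, and other caps, such as the interferon-inducible activator formed by PSME1 and PSME2, can replace the regulatory particle. Mammalian embryos need an active proteasome from their first stages on.

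Values are the deposited log2 signals, and differences are differences of group means on that scale. Each probe set has its own sensitivity, so levels are compared between samples and never between genes. A probe set was tested if its signal exceeded log2 4 on 3 or more arrays, which held for 6892 in the conceptus comparisons and for 8164 in those with fibroblasts. A gene was called when the two-sided adjusted p of limma, with Benjamini-Hochberg adjustment over all probe sets tested, was below 0.05. In bulk RNA, fewer cells of a type and less RNA per cell cannot be told apart.

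The arrays were alike in the number of probe sets above log2 4, from 6359 to 6643. Of 14 trophoblast markers, 11 were above log2 4 on every SCNT array, 11 on every IVP array and 13 on every AI array, against 0 on FB arrays. Of 11 fibroblast markers, 1 was above it on every array of each conceptus group, against 9 on FB arrays. That 1 was THY1, which went the other way. Its mean was 5.11 in SCNT, 4.70 in IVP and 5.09 in AI, against 3.07 in FB. The tissue field of the fibroblast samples reads as embryo, which these markers go against, while their description as donor fibroblasts does not. The summed level of 9 leukocyte markers was 5.99 to 7.02 in SCNT, 6.03 to 7.26 in IVP, 9.42 to 10.13 in AI and 5.64 to 5.65 in FB. In AI 3 of the 9 were above log2 4 on every array and 6 on no array. On every array of the other groups 0 were above it in SCNT, 1 in IVP and 0 in FB. The summed level of 4 erythrocyte markers was 4.43 to 4.50 in SCNT, 4.45 to 4.58 in IVP, 6.41 to 7.95 in AI and 4.42 to 4.43 in FB. Only 1 of the 4 was above log2 4 on AI arrays, ALAS2 with a mean of 6.80, and the other 3 were above it on no array. Of 11 hypoblast and yolk sac markers, 3 were above log2 4 on every array of each conceptus group and 1 on every FB array. The summed level of the 11 was 11.52 to 11.94 in SCNT, 12.35 to 12.64 in IVP, 12.41 to 13.15 in AI and 7.34 to 7.55 in FB. The 1 in FB was TTR, with a mean of 6.75 there against 2.43 in each conceptus group. None of 6 endometrial markers was above log2 4 on any array. The gap between the 3′ and 5′ control probe sets of GAPDH, a sign of RNA integrity, was 0.28 to 0.45 in SCNT, 0.35 to 0.89 in IVP, 0.21 to 0.38 in AI and 0.01 to 0.06 in FB, on the log2 scale. The part of these tissue and RNA differences in the proteasome results was not tested.

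One AI array stood apart for the regulatory particle and has to be described first. The mean of the core genes minus the mean of the regulatory particle genes was 1.87 on AI array 2, against 1.32 and 1.39 on the other AI arrays. It was 1.39 to 1.52 on SCNT arrays, 1.44 to 1.56 on IVP arrays and 1.15 to 1.16 on FB arrays, so AI array 2 lay above every other array. Among the 9 genes of the base, 8 had their lowest AI value on that array (88.9%, against 47.4% of all probe sets tested), and the median distance of the base from the mean of the other AI arrays was -0.52. The ATPase PSMC1 had 6.09 there, against 6.89 and 6.88 on the other AI arrays. The ubiquitin receptor PSMD4 had 7.01, against 7.74 and 7.88. The core genes leaned the other way: 8 of 13 had their highest AI value on array 2 (61.5%, against 30.9% of all probe sets tested), with a median distance of 0.11. PSMA5, a subunit of the alpha ring, had 8.75 on it, against 8.01 and 8.24. Over all probe sets tested the median distance of array 2 was -0.07. For the core, AI array 1 lay farther from its group, on the low side. There 9 of 13 core genes had their lowest AI value (69.2%, against 26.9% of all probe sets tested), with a median distance of -0.14. The mean of the core genes was 8.93 on AI array 1, against 9.17 on array 2 and 9.09 on array 3. Array 2 also had the highest AI level of the hybridisation controls, 8.61 against 7.86 and 7.69, while IVP arrays had 8.08, 8.61 and 8.57. The part of that in the core and base values was not tested, and results that move without AI array 2 are given both ways.

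**Figure D1:**
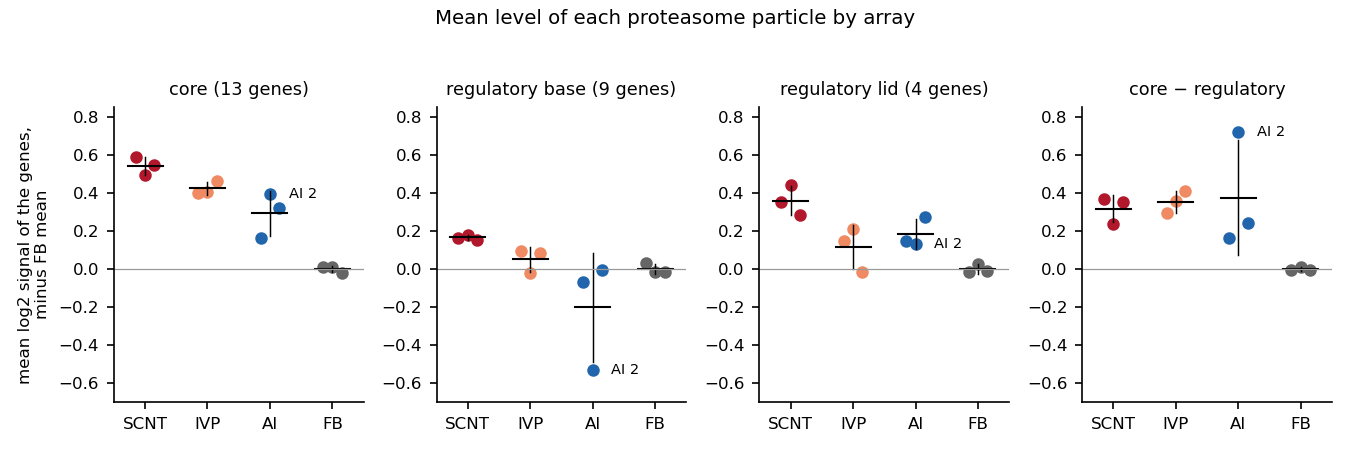
Mean log2 signal per array over the genes of the core, of the regulatory particle's base and of its lid, and core minus regulatory particle, each as the difference from the FB mean (points: arrays; horizontal bars: group means; vertical lines: SD), in SCNT, IVP, AI and FB. AI array 2 has the lowest base value and the highest core minus regulatory value, and the FB arrays have the lowest core values.

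The comparison of SCNT with AI conceptuses asks how cloned conceptuses differed from those of in vivo produced embryos. SCNT conceptuses had higher levels of 7 proteasome genes than AI conceptuses, by 1.31 to 1.54-fold: 3 core subunits, 1 ATPase of the regulatory particle and 3 assembly factors. No member was called lower. The 7 of 37 genes are a share of 18.9%, while 27.6% of all probe sets tested were called in this comparison, 16.2% higher and 11.4% lower. The count of called members is thus not above the background in this fit. Of all members' values, called or not, 31 of 37 were positive, with a median difference of 0.24, against 58.1% positive and a median of 0.08 over all probe sets. All 13 core genes and all 9 base genes had positive values, with medians of 0.23 and 0.40. The mean shift of the regulatory particle was 0.31 and that of its base 0.37, and without AI array 2 they were 0.19 and 0.20.

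In the core, PSMA6 is a subunit of the alpha ring. It had 10.12, 10.02 and 10.18 in SCNT conceptuses, against 9.58, 9.80 and 9.79 in AI conceptuses. The lowest SCNT array was above the highest AI array, and the IVP arrays lay at 10.01, 9.84 and 10.05. The difference was 0.39 ± 0.12 (SE), or 1.31-fold (95% interval 1.08 to 1.58), with an adjusted p of 0.0413 in limma.

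PSMB6 and PSMB7 are 2 of the 3 catalytic subunits of the constitutive core, with caspase-like and trypsin-like activity. PSMB6 had 9.71, 9.57 and 9.53 in SCNT conceptuses, against 9.17, 9.22 and 9.24 in AI conceptuses. PSMB7 had 8.80, 8.54 and 8.71 in SCNT conceptuses, against 8.15, 8.14 and 8.42 in AI conceptuses. For both genes every SCNT array was above every AI array. PSMB6 was 1.31-fold higher (1.10 to 1.56, limma adjusted p = 0.0274) and PSMB7 1.36-fold higher (1.10 to 1.68, adjusted p = 0.0353). PSMB5, the catalytic subunit with chymotrypsin-like activity, had 9.21, 9.20 and 9.07 in SCNT conceptuses, against 8.92, 9.13 and 9.0 in AI conceptuses. Its groups overlapped, and its difference of 0.15 was not called (adjusted p = 0.401).

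In the regulatory particle, PSMC4 was the 1 ATPase called. It had 7.79, 7.54 and 7.50 in SCNT conceptuses, against 7.20, 6.95 and 7.13 in AI conceptuses, with no overlap. The difference was 0.52, or 1.43-fold (1.15 to 1.78, limma adjusted p = 0.0227). The other ATPases had values of 0.20 to 0.54, none of them called. PSMC1 had the largest of these, at 7.00, 7.10 and 7.40 in SCNT conceptuses against 6.89, 6.09 and 6.88 in AI conceptuses (adjusted p = 0.0793). Its lowest AI value was that of array 2. PSMD2, a scaffold subunit of the base, had 8.12, 8.24 and 8.20 in SCNT conceptuses, against 7.88, 7.55 and 7.92 in AI conceptuses (adjusted p = 0.0567). In the lid none of 4 genes was called: PSMD14, the deubiquitinase, had a difference of 0.28 (adjusted p = 0.0927) and PSMD13 one of -0.08 (adjusted p = 0.823).

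Among the assembly factors, PSMG1 and PSMG2 form the chaperone that starts the alpha ring. PSMG1 had 8.47, 8.48 and 8.53 in SCNT conceptuses, against 7.94, 7.98 and 7.84 in AI conceptuses. PSMG2 had 8.96, 8.96 and 8.92 in SCNT conceptuses, against 8.38, 8.71 and 8.22 in AI conceptuses. Neither gene's groups overlapped, and the AI arrays of PSMG2 were spread over a wider range than its SCNT arrays. PSMG1 was 1.49-fold higher (1.25 to 1.78, limma adjusted p = 0.00514) and PSMG2 1.42-fold higher (1.15 to 1.77, adjusted p = 0.0217).

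PSMD9, a chaperone of the base, had 6.62, 6.33 and 6.48 in SCNT conceptuses, against 5.79, 5.69 and 6.09 in AI conceptuses. It had the largest difference of the members, 0.62 or 1.54-fold (1.24 to 1.90, limma adjusted p = 0.00915), with no overlap. PSMG3, part of a second alpha ring chaperone, had 6.27, 6.06 and 5.81 in SCNT conceptuses, against 5.78, 5.81 and 6.17 in AI conceptuses, which overlapped.

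The other base chaperones had negative values. PSMD5 had 6.28, 6.19 and 6.28 in SCNT conceptuses, against 6.53, 6.81 and 6.57 in AI conceptuses (difference -0.39, adjusted p = 0.0657). PSMD10 had 7.37, 7.17 and 7.30 in SCNT conceptuses, against 7.76, 7.63 and 7.41 in AI conceptuses (difference -0.33, adjusted p = 0.105). Every SCNT array lay below every AI array for both genes, and limma called neither.

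The caps and the inhibitor gave no call. PSME1, which forms the interferon-inducible activator with PSME2, had 5.40, 5.28 and 5.10 in SCNT conceptuses, against 5.61, 5.58 and 5.86 in AI conceptuses, with no overlap (difference -0.42, adjusted p = 0.0765). PSME2 had 5.57, 5.39 and 5.61 in SCNT conceptuses, against 5.48, 5.56 and 5.81 in AI conceptuses. PSME4, a single-chain activator known for the degradation of acetylated histones, had 5.03, 5.09 and 5.28 in SCNT conceptuses, against 5.07, 5.06 and 5.25 in AI conceptuses. Both of these overlapped between the groups. PSMF1, an inhibitor of the core in vitro, lay between 3.84 and 4.27 on all 12 arrays and was above log2 4 on 6 of them. PSME3IP1 had 5.67, 5.54 and 5.81 in SCNT conceptuses, against 5.56, 5.29 and 5.50 in AI conceptuses, which overlapped.

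**Figure D2:**
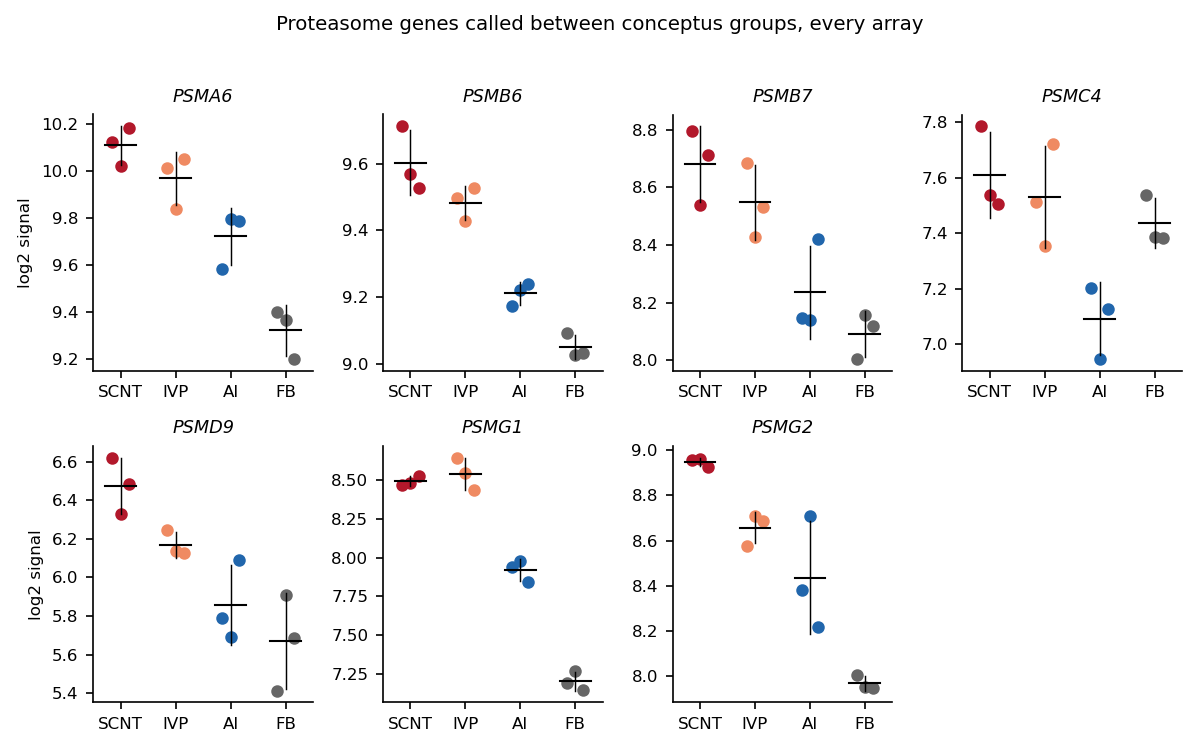
Log2 signal on each array (points), with group mean (horizontal bars) and SD (vertical lines), of the 7 members called between SCNT and AI conceptuses, in SCNT, IVP, AI and FB. In each panel the 3 SCNT points lie above the 3 AI points; the 3 IVP points do so too in each panel except PSMG2.

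Across the members, 16 of 37 had SCNT and AI arrays that did not overlap, 13 of them higher and 3 lower, while 44.3% of all probe sets tested did not overlap, 27.2% higher and 17.1% lower. At an unadjusted p below 0.05, 18 members passed, 15 of them higher, against 40.3% of all probe sets tested (24.1% higher, 16.3% lower). The number called depended on single arrays: it was 2 without SCNT array 1, 3 without SCNT array 2, 4 without SCNT array 3 and 3 without AI array 1, and 3 when no filter on low signals was used. PSMG1 and PSMD9 kept their call in each of these settings, and the adjusted p of the other 5 genes reached 0.0743 to 0.137 when an array was left out. With all 12 arrays in the fit, 13 members were called higher and 2 lower, or 40.5% of the members against 31% of all probe sets in that fit, so the count lies above the background there. That fit pools the spread of the FB arrays with that of the conceptuses. The SD of the core mean was 0.02 in FB, against 0.05 in SCNT, 0.04 in IVP and 0.12 in AI. The count from that fit may therefore understate the spread between conceptuses. Without AI array 2 the conceptus fit called 8 members, which were only 5 of the 7 and also the core genes PSMA1, PSMA3 and PSMA5. PSMB7 was among the calls lost there, while PSMA6, PSMB6, PSMG1 and PSMD9 kept theirs. Of the remaining called genes, PSMC4 had its lowest AI value on array 2 and PSMG2 its highest. Of the 7 calls, those of PSMA6 and PSMB7 were lost with the level of the hybridisation controls as a covariate.

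The comparison of IVP with AI conceptuses asks what fertilisation and culture in vitro did without cloning. PSMG1 was the 1 member called. It had 8.65, 8.54 and 8.44 in IVP conceptuses, against 7.94, 7.98 and 7.84 in AI conceptuses, with no overlap. The difference was 0.62, or 1.54-fold (1.29 to 1.84, limma adjusted p = 0.00514), and the call held in each alternative setting. In this comparison 17.9% of all probe sets tested were called, 8.42% higher and 9.49% lower, so 1 of 37 members lies well under the background.

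The 6 other genes called between SCNT and AI conceptuses had positive values here that limma did not call. PSMC4 came nearest, at 7.51, 7.35 and 7.72 in IVP conceptuses against 7.20, 6.95 and 7.13 in AI conceptuses (difference 0.44, adjusted p = 0.0591). The groups did not overlap for this gene, nor for PSMA6, PSMB6, PSMB7 and PSMD9, whose adjusted p lay between 0.124 and 0.195. PSMG2 had 8.58, 8.71 and 8.68 in IVP conceptuses, which overlapped the AI arrays (adjusted p = 0.301). Over the members, 14 had arrays that did not overlap, 11 higher and 3 lower, against 37.4% of all probe sets tested (20.1% higher, 17.4% lower).

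The median difference was 0.18 over the members, 0.18 in the core and 0.22 in the regulatory particle, against 0.02 over all probe sets. Without AI array 1 the core median was 0.03 and without AI array 2 the mean shift of the regulatory particle was 0.03, against 0.15 with it, and that of the base 0.09, against 0.25 with it. The lowest value was that of PSMD13, a lid subunit, at 5.57, 5.74 and 4.96 in IVP conceptuses against 6.0, 5.89 and 5.99 in AI conceptuses (difference -0.54, adjusted p = 0.112). Its IVP arrays lay below its AI arrays and were far more spread, with IVP array 3 the lowest. Without that array 2 members were called, 1 in each direction. Of the caps, PSME1 had 5.09, 5.12 and 5.58 in IVP conceptuses, against 5.61, 5.58 and 5.86 in AI conceptuses (difference -0.42, adjusted p = 0.0987).

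**Figure D3:**
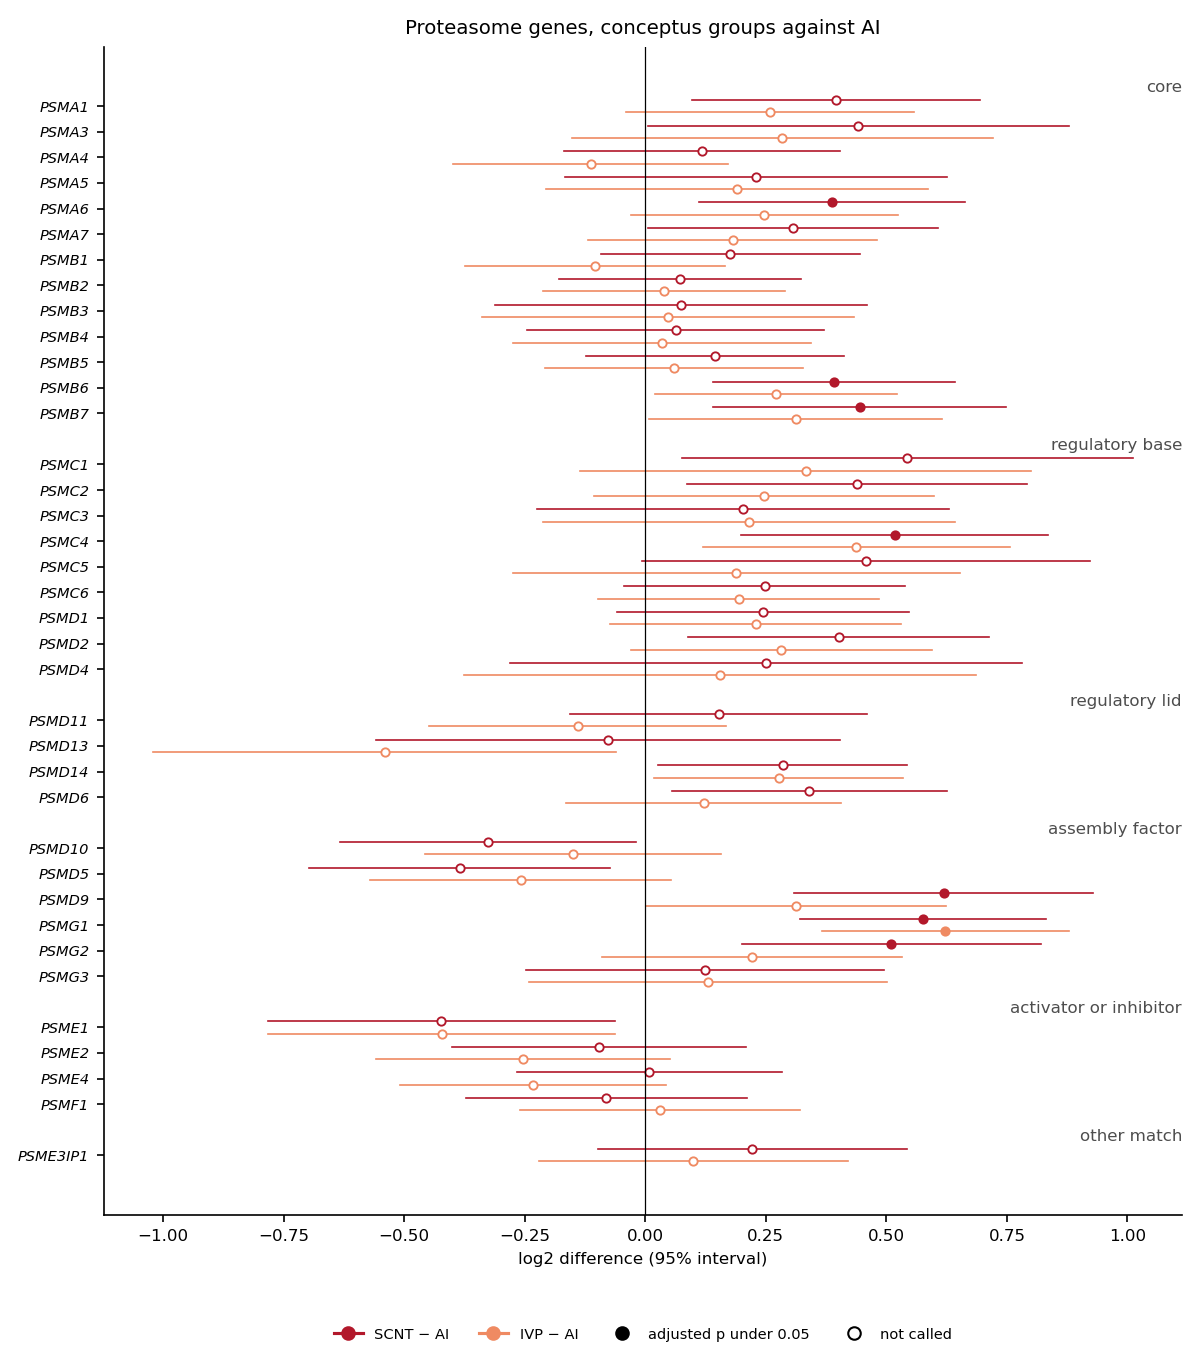
Log2 difference with its 95% interval for each of the 37 genes in SCNT minus AI and in IVP minus AI, grouped by role; filled points are called by limma. Calls appear for 7 genes in SCNT minus AI and for PSMG1 in IVP minus AI, and all base values lie right of 0 in both comparisons.

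The comparison of SCNT with IVP conceptuses sets cloning against the other in vitro origin. None of the 37 members was called by limma, and the lowest adjusted p was 0.368. Of all probe sets tested 0.58% were called, 0.232% higher and 0.348% lower, so few genes of any kind were called here. At an unadjusted p below 0.05, 12.7% of all probe sets and 1 member passed, PSMB1, a beta ring subunit. It had 9.58, 9.43 and 9.37 in SCNT conceptuses, against 9.23, 9.16 and 9.14 in IVP conceptuses, with no overlap. The 95% intervals of the members ran from -0.48 to 0.94 in log2, so differences of that size remain possible for single genes.

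The values again leaned to SCNT. All 13 core genes and 30 of the 37 members were positive, with medians of 0.13 and 0.12, against 0.06 and 61.6% positive over all probe sets. Arrays did not overlap for 8 members, all higher in SCNT, against 19.7% of all probe sets tested (12.9% higher, 6.83% lower). Besides PSMB1 these included PSMA4 of the alpha ring, at 8.72, 8.65 and 8.88 in SCNT conceptuses against 8.36, 8.56 and 8.63 in IVP conceptuses, and the chaperone PSMG2, whose SCNT arrays were above its IVP arrays of 8.58, 8.71 and 8.68. When arrays were centred on their medians the core median was 0.08, against 0.01 over all probe sets in that setting. For PSMG1 the SCNT and IVP arrays overlapped, with a difference of -0.05 (adjusted p = 0.918).

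The comparisons with donor fibroblasts set each conceptus group against the cells used as nuclear donors. They share the FB arrays, so they are not independent of each other and are given side by side. Most core subunits were higher in SCNT and IVP conceptuses than in fibroblasts, while the ATPases were mixed. Several chaperones were higher too, with PSMD10 farthest ahead, and the PSME1 and PSME2 cap was lower. Most probe sets differed between conceptuses and fibroblasts: 79.9% of the probe sets tested were called in SCNT against FB, 78.7% in IVP against FB and 77.2% in AI against FB. Against that background, 24 of 37 members were called in SCNT (20 higher, 4 lower), 25 in IVP (20 higher, 5 lower) and 19 in AI (12 higher, 7 lower). All 3 counts are shares below the background, which was 45% higher and 34.8% lower in SCNT, 43% and 35.7% in IVP, and 41.6% and 35.6% in AI conceptuses. The calls of members leaned to the higher side in each group, as did those of all probe sets. Members called higher were 54.1% in SCNT and 54.1% in IVP, above the background shares, and 32.4% in AI, below it. Arrays did not overlap for 26 members in SCNT (21 higher, 5 lower), 27 in IVP (20 higher, 7 lower) and 22 in AI (14 higher, 8 lower). Over all probe sets tested they did not overlap for 84.7% in SCNT (48.2% higher, 36.6% lower), 83.4% in IVP (45.8% and 37.5%) and 81.3% in AI (43.9% and 37.4%).

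PSMD10, known as gankyrin, is a chaperone of the base and also binds regulators of the cell cycle. It had 7.37, 7.17 and 7.30 in SCNT, 7.33, 7.42 and 7.62 in IVP, and 7.76, 7.63 and 7.41 in AI conceptuses, against 4.10, 4.34 and 4.54 in fibroblasts. Every conceptus array was far above every FB array, which lay only just above the filter. It was 7.73-fold higher in SCNT (6.30 to 9.49, limma adjusted p = 1.01e-09), 8.73-fold higher in IVP (adjusted p = 5.96e-10) and 9.69-fold higher in AI conceptuses (adjusted p = 3.81e-10). No other member had a fold this large.

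Among the other chaperones, PSMG1 was 2.45-fold higher in SCNT, 2.53-fold in IVP and 1.65-fold in AI conceptuses, against FB arrays of 7.19, 7.27 and 7.15. PSMG2 was 1.97-fold higher in SCNT, 1.61-fold in IVP and 1.38-fold in AI conceptuses, against FB arrays of 8.01, 7.95 and 7.95. PSMG3 was called higher in each conceptus group over FB arrays of 5.56, 5.61 and 5.39, and in AI the call was lost without AI array 3, FB array 1 or FB array 3 (adjusted p up to 0.117). PSMD9 was called higher in SCNT and in IVP conceptuses, but not in AI (difference 0.19, adjusted p = 0.245). PSMD5 ran the other way. It was below all its FB arrays of 7.23, 7.14 and 7.25 in each conceptus group, 1.94-fold lower in SCNT, 1.78-fold lower in IVP and 1.49-fold lower in AI conceptuses.

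In the core, 10 of 13 genes were called higher in SCNT (76.9%, against 45% of all probe sets tested) and 10 in IVP conceptuses (76.9%, against 43%). In AI conceptuses 6 were called higher (46.2%), near the 41.6% of all probe sets. PSMB1 was the 1 core gene called lower, in IVP conceptuses. Core medians were 0.59 in SCNT, 0.46 in IVP and 0.18 in AI conceptuses, against medians of 0.20, 0.14 and 0.11 over all probe sets. The latter include probe sets that passed the filter only through the 3 FB arrays. With 1 FB array left out, such probe sets were not tested. The medians over all probe sets were then 0.38 to 0.39 in SCNT, 0.33 in IVP and 0.28 to 0.29 in AI conceptuses. The AI core median of 0.18 lies below that last range. PSMA4 had 8.72, 8.65 and 8.88 in SCNT, 8.36, 8.56 and 8.63 in IVP, and 8.69, 8.52 and 8.69 in AI conceptuses, against 7.58, 7.57 and 7.75 in fibroblasts. All conceptus arrays were above all FB arrays, and the folds were 2.17 in SCNT, 1.85 in IVP and 2.00 in AI conceptuses (limma adjusted p of 1.09e-06, 9.38e-06 and 3.2e-06).

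PSMA5 also lay above its FB arrays of 7.60, 7.69 and 7.63 everywhere, by 1.90-fold in SCNT, 1.85-fold in IVP and 1.62-fold in AI conceptuses. Among the catalytic subunits, PSMB5 was 1.68-fold higher in SCNT, 1.58-fold in IVP and 1.52-fold in AI conceptuses, over FB arrays of 8.46, 8.38 and 8.40. PSMB6 was called higher in SCNT and in IVP conceptuses, with a value of 0.16 in AI (adjusted p = 0.0955), and so was PSMB7, with 0.14 in AI (adjusted p = 0.264). PSMA3 and PSMB4 were not called in any of the 3 comparisons. For PSMB1 the IVP arrays of 9.23, 9.16 and 9.14 lay just below the FB arrays of 9.45, 9.45 and 9.31, 1.17-fold lower (adjusted p = 0.0464). That call was lost in 13 of 22 settings, among them the omission of any IVP or any FB array (adjusted p up to 0.175 with an array left out).

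The regulatory particle had 5 genes called higher and 1 lower in SCNT, 5 and 1 in IVP, and 2 and 4 in AI conceptuses. In each group 46.2% of its genes were called, below the 77.2% to 79.9% of all probe sets tested. Those called higher were 38.5% in SCNT, 38.5% in IVP and 15.4% in AI, against 45%, 43% and 41.6% of all probe sets. The medians of the regulatory particle were 0.19 in SCNT, 0.09 in IVP and 0.04 in AI conceptuses, near or below those of all probe sets. With 1 FB array left out they were below those of all probe sets in each group. The gene lower in each group was PSMC3, an ATPase. It had 8.03, 7.67 and 7.81 in SCNT, 7.87, 7.86 and 7.82 in IVP, and 7.79, 7.16 and 7.96 in AI conceptuses, against 8.77, 8.87 and 8.74 in fibroblasts. No array overlapped, and the level was 1.94-fold lower in SCNT (adjusted p = 2.75e-04), 1.92-fold lower in IVP (3.14e-04) and 2.23-fold lower in AI conceptuses (5.99e-05).

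The other ATPases called lower in AI conceptuses were PSMC2, 1.45-fold, and PSMC4, 1.27-fold. Both had their lowest value on AI array 2, and PSMC4 lost its call without that array (adjusted p = 0.0765) and without FB array 1 (adjusted p = 0.102). The second probe set of PSMC2 gave -0.25 in AI conceptuses (adjusted p = 0.122), which is no call. The lid gene PSMD6 was the fourth, at 6.70, 6.70 and 6.87 in AI conceptuses against 7.10, 7.03 and 7.02 in fibroblasts, and its call was lost without AI array 1 or 2 and without any FB array (adjusted p up to 0.0990). PSMD11, the lid scaffold subunit, was higher in every group, at 1.86-fold in SCNT, 1.52-fold in IVP and 1.68-fold in AI conceptuses over FB arrays of 7.61, 7.65 and 7.56. The base scaffold PSMD1 was called higher in all 3 comparisons too, with differences of 0.65 in SCNT, 0.63 in IVP and 0.40 in AI conceptuses. Probe sets disagreed for PSMC6: the brighter one gave 0.49 in SCNT, 0.43 in IVP and 0.24 in AI conceptuses, and the other gave -0.35, -0.59 and -0.77, each of these called. Its direction is therefore uncertain, although it stands among the genes counted as higher in SCNT and IVP.

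The caps gave the clearest falls. PSME1 had 5.40, 5.28 and 5.10 in SCNT, 5.09, 5.12 and 5.58 in IVP, and 5.61, 5.58 and 5.86 in AI conceptuses, against 6.90, 6.86 and 6.87 in fibroblasts. PSME2 had 5.57, 5.39 and 5.61 in SCNT, 5.33, 5.51 and 5.25 in IVP, and 5.48, 5.56 and 5.81 in AI conceptuses, against 6.50, 6.61 and 6.63 in fibroblasts. Neither gene's conceptus arrays reached its FB arrays. PSME1 was 3.06-fold lower in SCNT, 3.05-fold lower in IVP and 2.28-fold lower in AI conceptuses, with limma adjusted p at or below 7.15e-06. PSME2 was 2.08-fold lower in SCNT, 2.33-fold lower in IVP and 1.95-fold lower in AI conceptuses, with adjusted p at or below 7.65e-06. PSME4 and PSMF1 were not called in any comparison with fibroblasts.

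**Figure D4:**
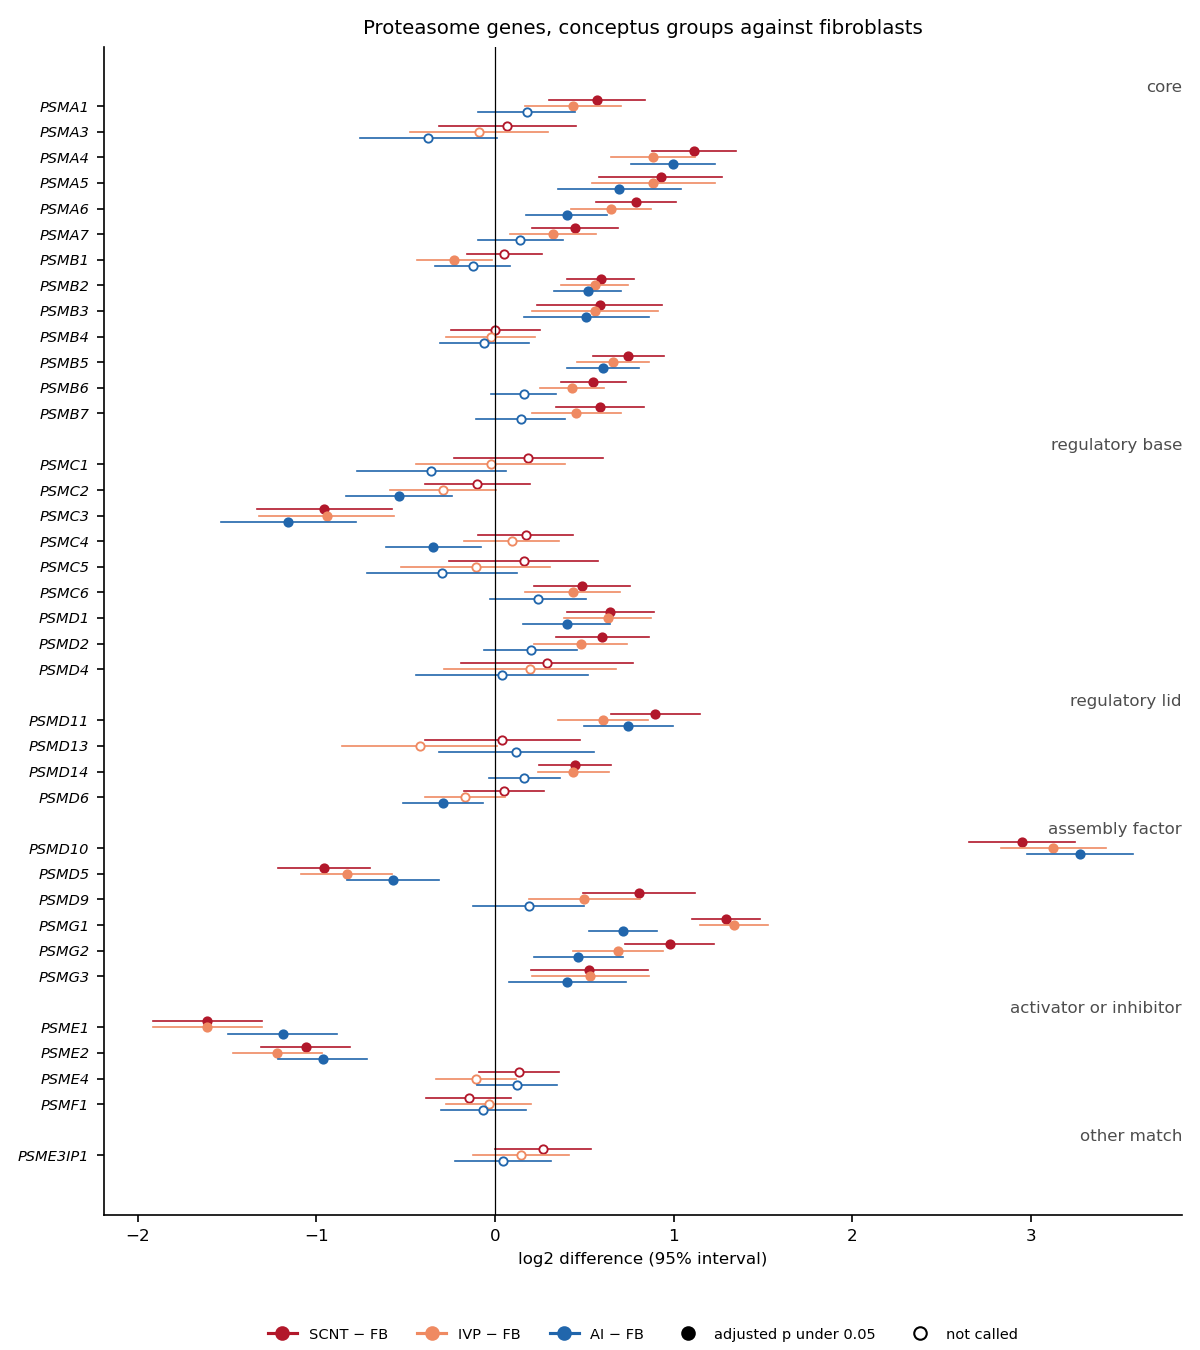
Log2 difference with its 95% interval for each of the 37 genes in SCNT, IVP and AI conceptuses minus FB, grouped by role; filled points are called by limma. PSMD10 lies near 3 in every comparison, the core genes lie mostly right of 0, and PSME1, PSME2, PSMD5 and PSMC3 lie left of it.

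Set against fibroblasts, the core stood higher relative to the regulatory particle in each conceptus group. The mean core level minus the mean regulatory particle level was 1.47 ± 0.07 in SCNT, 1.51 ± 0.06 in IVP and 1.53 ± 0.30 in AI conceptuses, against 1.15 ± 0.01 in fibroblasts (SD, n = 3 each). No conceptus array reached the FB arrays, the nearest being 1.32. The core shifted by 0.54 in SCNT, 0.42 in IVP and 0.29 in AI conceptuses, and the regulatory particle by 0.23 in SCNT, 0.07 in IVP and -0.08 in AI conceptuses. Without AI array 2 the regulatory particle shift in AI conceptuses was 0.04, with the sign turned. Without AI array 2 the excess of the core shift over that of the regulatory particle in AI conceptuses was 0.20, against 0.37 with it. Between conceptus groups the excess was -0.06 in SCNT minus AI, -0.02 in IVP minus AI and -0.04 in SCNT minus IVP, and without AI array 2 the first was 0.11 and the second 0.15. These are means over genes measured by 1 probe set each, and signal of different probe sets is not amount, so they show unequal change and no ratio of particles.

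With the level of the hybridisation controls as a covariate, 24 of 24 calls in SCNT against FB were kept, 17 of 25 in IVP and 12 of 19 in AI. The calls lost in IVP were PSMA1, PSMA5, PSMB1, PSMB3, PSMC3, PSMC6, PSMG2 and PSMG3, and those lost in AI were PSMA5, PSMB3, PSMC2, PSMC4, PSMD6, PSMG2 and PSMG3. That level was 7.33 to 7.52 on FB arrays and higher on every conceptus array, so it cannot be told apart from the groups.

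Other genes of the pathway were counted from lists of additional subunits, assembly and docking factors, transcription factors, shuttles and ubiquitin genes. Of these, 31 had a probe set, and 22 were tested among conceptuses. In SCNT against AI conceptuses 3 were called higher and 0 lower, fewer than the 27.6% of all probe sets. UCHL5, a deubiquitinase that docks on the regulatory particle, had 8.25, 8.35 and 8.39 in SCNT and 8.28, 8.11 and 7.97 in IVP conceptuses, against 7.69, 7.33 and 7.56 in AI conceptuses. No SCNT or IVP array overlapped the AI arrays, with differences of 0.80 in SCNT (limma adjusted p = 0.00238) and 0.59 in IVP (0.0153, and 0.0583 without IVP array 1).

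RAD23B, a shuttle that carries ubiquitinated proteins to the proteasome, had 9.12, 8.85 and 8.99 in SCNT conceptuses, against 7.98, 7.80 and 8.13 in AI conceptuses. Its difference was 1.02 (adjusted p = 0.00733), and with no filter on low signals the adjusted p was 0.0835. UBQLN1, another shuttle, had 8.09, 7.86 and 8.20 in SCNT conceptuses, against 7.08, 7.26 and 7.32 in AI conceptuses, a difference of 0.83 (adjusted p = 0.00220). Both shuttles were higher in SCNT on every array. The second probe set of UBQLN1 gave 0.68 (adjusted p = 0.0572).

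In IVP against AI conceptuses 3 of the 22 were called higher and 1 lower, near the 17.9% of all probe sets. UBQLN1 was among the higher ones, with 0.47 (adjusted p = 0.0422). It lost the call without SCNT array 1, without IVP array 1 or 2 and without any AI array (adjusted p up to 0.136), with the covariate above and with the second probe set, which gave 0.18 (adjusted p = 0.629). FAF2, a membrane cofactor of the segregase VCP, was the lower one, with -0.65 (adjusted p = 0.0293), and lost the call without IVP array 2 or 3 without AI array 1 or 3 (up to 0.0974) and with that covariate. ZFAND2A, a stress-inducible zinc finger protein that binds the proteasome, had 4.55, 4.35 and 4.95 in IVP conceptuses, against 3.05, 3.05 and 3.19 in AI conceptuses, with SCNT arrays all at 3.05. It passed the filter only through its IVP arrays and so had to differ, and its level is given as a description: at least 1.53-fold higher in IVP than in AI conceptuses and at least 1.53-fold lower in SCNT than in IVP conceptuses. It was 1 of the 3 counted as higher above, and no other of the 22 was called between SCNT and IVP conceptuses. The bound sets the dim group at log2 4.

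Against fibroblasts 24 pathway genes were tested, of which 9 were higher and 7 lower in SCNT, 9 and 9 in IVP, and 9 and 10 in AI conceptuses, where 77.2% to 79.9% of all probe sets were called. These counts include PSMB10 and NFYA in each group and ZFAND2A in IVP. Each passed the filter only through conceptus arrays or only through FB arrays, so its call follows in part from the filter. The same holds for PAAF1, of the assembly list, which is counted as lower in each group and was not tested among conceptuses. Its mean was 4.26 in FB, against 3.75 in SCNT, 3.23 in IVP and 3.55 in AI conceptuses. Among the inducible catalytic subunits that can replace the constitutive ones, PSMB8 and PSMB9 were not above log2 4 on any array. PSMB10 lay between 3.24 and 3.36 in conceptuses, against 5.52, 5.40 and 5.36 in fibroblasts, at least 2.69-fold lower in each conceptus group. It passed the filter only through the FB arrays, so this fold is a description. Of 5 tested transcription factors of proteasome genes, 2 were called higher and 2 lower than in fibroblasts in each conceptus group, and those named here were picked out after their values were seen. NFYB, a subunit of a factor that binds CCAAT boxes, was higher, at 0.80 in SCNT, 0.78 in IVP and 0.76 in AI conceptuses. NFYA, another subunit, was the other gene counted as higher and passed the filter only through conceptus arrays. MAFG, a partner of NFE2L1, had differences of -1.35 in SCNT, -1.58 in IVP and -1.84 in AI conceptuses. NFE2L1 lay between 4.65 and 5.48 in conceptuses, against 8.04, 8.02 and 7.60 in fibroblasts, with differences of -2.56 in SCNT, -2.65 in IVP and -2.80 in AI conceptuses. NFE2L1 was not called among conceptuses (SCNT minus AI 0.24, adjusted p = 0.373).

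**Figure D5:**
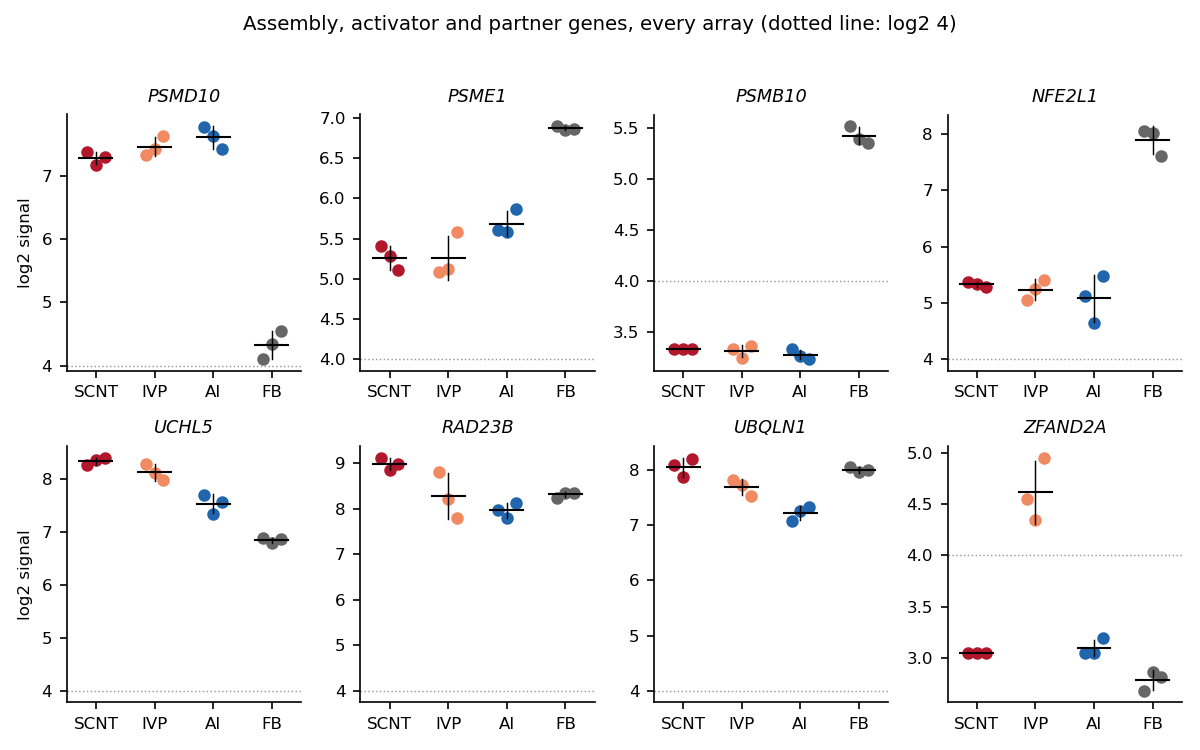
Log2 signal on each array (points), with group mean (horizontal bars) and SD (vertical lines), of the chaperone PSMD10, the activator PSME1 and 6 pathway genes outside the members, in SCNT, IVP, AI and FB; the dotted line marks log2 4. UCHL5, RAD23B and UBQLN1 are higher on the SCNT than on the AI arrays, ZFAND2A is above log2 4 on the IVP arrays, and PSME1, PSMB10 and NFE2L1 are highest on the FB arrays.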

How the data were processed

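Total RNA was labelled with biotin and hybridised to Affymetrix arrays, per the labels' protocols. The authors deposited log2 signals of 24128 probe sets on 12 arrays. GCRMA and limma are named in the submitters' processing notes; no source used here gives their versions or says whether all arrays were normalised together. Of the deposited log2 values, 36.9% lay within 0.01 of the lowest, 2.42. After 112 control probe sets were removed, 13292 had 1 gene symbol from the array annotation, 86 several and 10638 none; 13263 matched the ARS-UCD2.0 gene table, used for names only, and 0 symbols changed.

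The log2 values were used as deposited. Linear models with 1 mean per group were fitted by lmFit and moderated by eBayes (limma 3.58.1, R 4.3.3), on the 9 conceptus arrays (6 residual degrees of freedom) or on all 12 arrays (8). The filter kept probe sets whose signal exceeded log2 4 on 3 or more arrays, with Benjamini-Hochberg adjustment over all of them, and the scripts were tested on simulated data. Where the mean of a group was below log2 4, its arrays below that level were set to it, and the fold was treated as a bound. The precision is limited by 3 arrays a group. Groups came from the sample titles and descriptions. Named with values were all members called among conceptuses, the 5 largest called rises and falls against FB, all assembly factors, activators and the inhibitor, and pathway genes called among conceptuses; further genes stand as examples. The members, lists and tests were chosen with earlier results of these data known. Alternatives covered filter, normalisation, probe set choice, fit, covariates and single arrays.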

Additional observations from a re-analysis of the deposited data

How the results depend on the processing

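Members called in SCNT against AI kept direction and call in 98 of 133 refits, in IVP against AI in 19 of 19, in SCNT against FB in 528 of 530, in IVP against FB in 521 of 552 and in AI against FB in 399 of 420. Direction turned for PSMC6, which gave -0.35 in SCNT and -0.59 in IVP against FB with its second probe set and -0.078 in IVP with the mean of its probe sets, and for PSMB3, which gave -0.027 in IVP against FB with the hybridisation control level as covariate. The rest kept direction and lost the call. In SCNT against AI the 7 called members became 3 with no filter, 15 with all 12 arrays in the fit, 4 without the 3 arrays of highest hybridisation control level (AI 2, IVP 2 and IVP 3, chosen after seeing the data) and 2 to 8 with 1 array left out. None of the 7 has a second probe set, so second probe sets could not test these calls. Of the 4 second probe sets tested, 1 was called, that of PSMC6. In IVP against AI the 1 called member became 2 with arrays centred on their medians, 5 with all 12 arrays in the fit, 2 with the hybridisation control level as covariate and 1 to 2 with 1 array left out. That member, PSMG1, has no second probe set either, and 0 of the 4 second probe sets tested were called. In SCNT against IVP the number called stayed 0 under each alternative. Against FB, 2 of the 4 second probe sets tested were called in SCNT, 2 in IVP and 2 in AI. The main fits called 24, 25 and 19 members there, and leaving out 1 array gave 24 to 25, 23 to 26 and 16 to 20.

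Medians moved as follows, core then regulatory particle. With second probe sets the core value is that of PSMB2 alone, and the regulatory particle median covers PSMC2, PSMC6 and PSMD4. In IVP against AI (0.18, 0.22), second probe sets gave a core value of 0.019, where the brightest probe set of PSMB2 gave 0.038. In that comparison 1 array left out gave 0.029 to 0.22 and 0.07 to 0.32. In SCNT against IVP (0.13, 0.12), the mean over the members gave 0.15 for the regulatory particle, quantile normalisation 0.071, centring 0.079 and 0.073, second probe sets 0.20 and 0.24, and 1 array left out 0.076 to 0.14 and 0.11 to 0.21. In SCNT against FB (0.59, 0.19), the mean gave 0.54 and 0.23, second probe sets 0.54 and 0.073, and 1 array left out 0.55 to 0.62 and 0.18 to 0.28. In IVP against FB (0.46, 0.09), the mean gave 0.42 for the core, quantile normalisation 0.51, centring 0.49 and 0.13, second probe sets 0.34 and -0.23, the mean of all probe sets of a gene -0.025 for the regulatory particle, and 1 array left out 0.44 to 0.49 and -0.0026 to 0.18. In AI against FB (0.18, 0.04), the mean gave 0.29 for the core, second probe sets 0.32 and -0.25, the mean of all probe sets of a gene -0.27 for the regulatory particle, and 1 array left out 0.15 to 0.29 and -0.13 to 0.14. The sign of the regulatory particle median in IVP and AI against FB thus depends on the probe sets and arrays used. The cause of these moves was not tested, other than that only 4 members had a second probe set tested.

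The labels give replicate numbers in each group but tie them to no animal, batch or day. Same-numbered arrays correlated between -0.15 and 0.21 over 18 pairs of arrays, and 4 of 12 arrays correlated best with their own number. With the replicate block, 6 members were called in SCNT against AI, which were 5 of the 7 (without PSMA6 and PSMB6) and PSMC2, and 1 in IVP against AI.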
